A study of Rattus norvegicus with 4 samples.

Results

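Nucleosome positions that held reads in the sperm of rats given either of 2 hormonal drugs, and none in the pooled sperm libraries of untreated rats, were collected on chromosome 2. The members were chosen by measured occupancy. A position of the cyproterone acetate table was paired with one of the tamoxifen table when their centers lay within 10 bp, and both had to have a pooled control signal of 0 at the summit. The treated signal had to reach 19 in the cyproterone acetate table and 21 in the tamoxifen table, which is 3 reads in each library. The rule was met by 1165 positions, out of 969963 positions in the cyproterone acetate table and 895443 in the tamoxifen table.

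The libraries were made from caudal epididymal spermatozoa of randomly bred Holtzman rats aged 75 days. One library came from rats given cyproterone acetate by mouth at 20 mg per kg per day, one from rats given tamoxifen at 0.4 mg per kg per day, and 2 from rats kept on sterile water, with 60 days of treatment and 6 animals to a group. All 4 libraries hold chromatin cut with micrococcal nuclease, from which the band of about 150 bp was taken. The labels do not say whether the animals of a group were pooled, or whether the 2 control libraries come from separate animals. With 1 library for each treatment there is no replicate check of any value below, no test between the groups, and nothing that separates a drug from the library it was measured in.

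Mature sperm pack most of their DNA with protamines, and histones stay behind on a minor part of the genome. Micrococcal nuclease cuts the linker DNA between nucleosomes, so the protected fragments mark where a nucleosome sat. Cyproterone acetate blocks the androgen receptor and has progestogen activity. Tamoxifen binds the estrogen receptors and acts as an antagonist or an agonist depending on the tissue. Positions are given by their coordinates in rn6, the build named in the submitters' processing notes, and gene annotation was not used here.

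Coverage was thin, so the members rest on small numbers. On chromosome 2 the summed reads at called positions were 1563294.5 for cyproterone acetate, 1311684.5 for tamoxifen, 1067555 for the control with fewer reads (called the shallower control below) and 1170574 for the other (the deeper control). Read numbers come in steps of 0.5, because the deposited signal does. Counting intervals below cover counting error only, since copies made by PCR cannot be told from separate molecules.

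Each treatment alone had many more such positions than the pair shared. With 3 or more reads against a pool of 0 there were 44658 positions for cyproterone acetate, which is 4.6% of its table, and 28100 for tamoxifen, which is 3.14% of its table. The 1165 shared positions were 2.61% of the first list and 4.15% of the second. For comparison, 1.4% of all 262532 positions of the cyproterone acetate table with the pool at 0, whatever their own read number, had a position of the tamoxifen list within 10 bp. Of all 205796 pool-empty positions of the tamoxifen table, 2.39% had one of the cyproterone acetate list that near. Whatever the pool, 12062 matched pairs had 3 or more reads in both libraries. They were a larger share of all positions with 3 or more reads than the members were of either list. The tables share the same pooled controls, so a stretch the controls happened to miss is empty in both of them.

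Most positions on either list had no called counterpart at all. No tamoxifen position lay within 10 bp of 88.6% of the cyproterone acetate list, and no cyproterone acetate position within 10 bp of 86.4% of the tamoxifen list. Between the control libraries, 31226 positions (3.59% of the control-pair table) had 3 or more reads in the shallower control and 0 in the deeper one, and 39399 (4.53%) the reverse. At 10 or more reads against 0 the numbers were 39 for the shallower control and 10 for the deeper one. Those numbers and shares are 1 library against 1, not against a pool of 2, and cannot be set on the same scale.

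Asking for a single empty control instead of both can only keep or raise the number. Of 12062 matched pairs with 3 or more reads in both treated libraries, 1896 were empty when the deeper control was left out, and 1853 when the shallower one was. For 6510 of these pairs the pool had reads but the control-pair table has no position within 10 bp, so both numbers are lower limits. The members were 9.66% of the 12062 pairs. Of all 279161 matched pairs, whatever their read number, 22830 (8.18%) had the pool at 0 in both, so the 2 shares were close on chromosome 2. On chromosome X, described below, they were further apart.

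Most of the members stood just at the threshold. With cyproterone acetate the read number ran from 3 to 21 with a median of 4, and 503 of 1165 (43.2%) had exactly 3. With tamoxifen it ran from 3 to 32 with a median of 3, and 593 (50.9%) had exactly 3. Both libraries stood at 3 in 310 members. The positions just inside had a signal of 19.1 with cyproterone acetate and 21.4 with tamoxifen, and those just outside had 15.9 and 17.8, or 2.5 reads, with 33 such pairs on either side. One step further out, 979 pairs had 2 reads with cyproterone acetate and 3 or more with tamoxifen, and 1364 had the reverse. Together the members held 5454.5 cyproterone acetate reads, or 0.349% of those summed over the called positions of the chromosome. For tamoxifen they held 5154.5 reads, or 0.393% of the sum.

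A tail of strong positions carried reads in both treated libraries together. At 33 members both libraries had 10 or more reads, and at 171 both had 5 or more. Across the 1165 members Pearson's r between the log2 read numbers of the treatments was 0.559 and Spearman's rho 0.359, a description over positions that were all cut at 3 reads in both libraries. The share of pool-empty positions that were members grew with the read number. It was 1.89% (535 of 28268, exact 95% counting interval 1.74 to 2.06) for cyproterone acetate positions with 3 or 3.5 reads. At 7 to 9.5 reads it was 11.7% (104 of 891, 9.64 to 14), and at 10 or more 29.7% (69 of 232, 23.9 to 36.1). For tamoxifen the same steps gave 3.37% (625 of 18566), 16.4% (63 of 385) and 32.1% (50 of 156, 24.8 to 40). Positions with reads in the pool were not counted in this way, so whether their sharing grows alike was not tested.

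**Figure D1:**
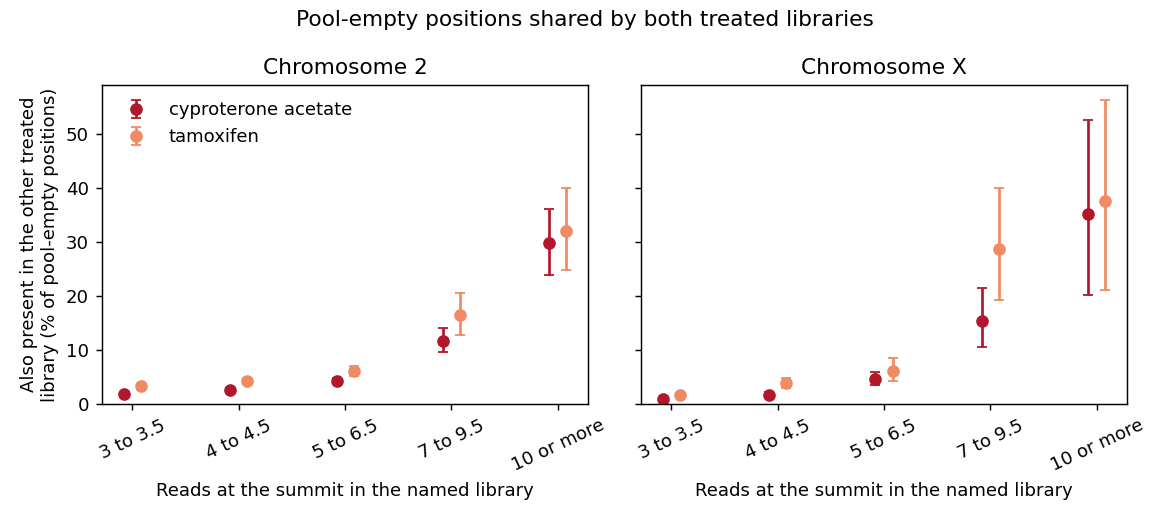
Percent of positions with the pooled controls at 0 that were also present in the other treated library with 3 or more reads, against the reads at the summit in the named library, on chromosomes 2 and X. Points are shares, bars exact 95% counting intervals, and on chromosome 2 the share goes from 1.89% to 29.7% for cyproterone acetate and from 3.37% to 32.1% for tamoxifen.

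**Figure D2:**
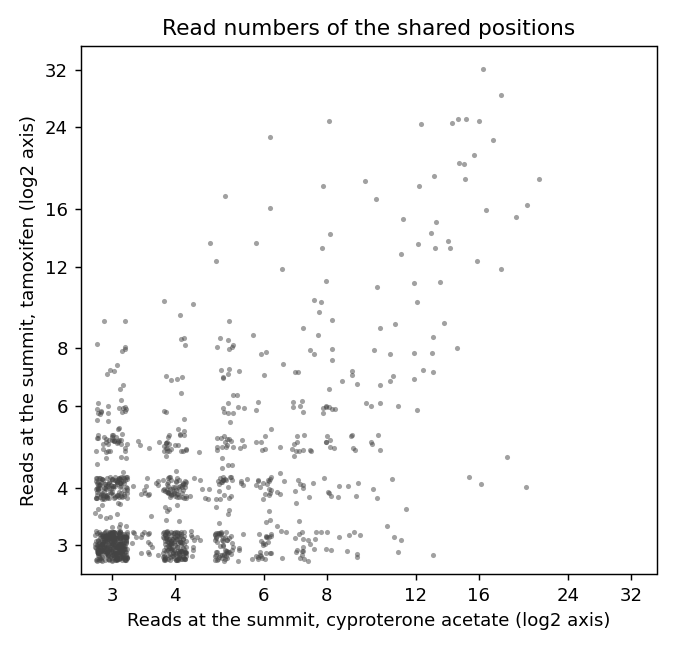
Reads at the summit of the 1165 members, cyproterone acetate against tamoxifen on log2 axes, 1 point for each position with a small random shift so that equal values show. Most points crowd at 3 to 4 reads, and a tail reaches 21 and 32 reads.

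The strongest members, ranked by the smaller of both read numbers, are given here because the pool of 2 controls had no read at their summits. The position chr2:228544392-228544592 had 21 reads with cyproterone acetate and 18.5 with tamoxifen. Within its whole 200 bp no pooled control read lay, and the nearest control position, 188 bp away, held 2 reads of the shallower and 1 of the deeper control. At chr2:211930582-211930782 the numbers were 17.5 and 28 reads, with a control position of 1 read 50 bp off. The position chr2:247045542-247045742 had 17 and 22.5 reads, and chr2:83710762-83710962 had 16.5 and 32, the highest tamoxifen number of all members. The rule and the ranking set the distance between treated and control reads at these positions.

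The next 6 were alike in size. They were chr2:165601352-165601552 with 20 reads for cyproterone acetate and 16.5 for tamoxifen, and chr2:140472212-140472412 with 16 and 25. The positions chr2:225005022-225005222 and chr2:187512602-187512802 had 16.5 and 16, and 15.5 and 21 reads. The last of the 10 were chr2:163333952-163334152 with 19 and 15.5 reads and chr2:115890992-115891192 with 15 and 25. In all 10 the nearest control position lay 50 to 188 bp away and held at most 2 reads of either control. The tamoxifen library was the higher one at 6 of the 10, and the cyproterone acetate library at the other 4.

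The emptiness of the controls was narrow. No control position with reads lay within 10 bp of any member, and within 73 bp one lay at 15.6% of the members. Within 150 bp this was 64.5% and within 500 bp 99.3%, and the median distance was 130 bp. Other pool-empty matched pairs, with fewer treated reads, gave 13.7%, 63.1% and 98.7%, with the same median of 130 bp. The pooled fuzziness score has a fixed value of 62.0 where no control read falls in the position; none of the positions at that value had a control position within 100 bp. By this score 337 members were free of control reads over their whole 200 bp in both tables.

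Around the members, reads of the treated libraries were raised, most of all within about 1 kb on either side. Those of the controls stayed near the level of ordinary positions. The flanks of a member hold reads the rule did not use. The rule chose centers high in the treated libraries and empty in the controls, so the flanks need not be independent of that choice. Pool-empty positions of 1 list with the same read number were not compared. Whether raised flanks go beyond the choice of members was therefore not tested, here, by read number or on chromosome X. Of the members, 49 have another member within 1 kb, whose reads the rule did use. Values for the 1116 members without one are given as well, a choice made after seeing the data. At 200 to 500 bp from the center the members had 1.83 times the chromosome mean of reads with cyproterone acetate and 1.96 times with tamoxifen. The shallower control stood at 1.32 times and the deeper at 1.28 times. Over the 1116 members with no other within 1 kb the 4 values were 1.72, 1.83, 1.33 and 1.3 times. All positions of the cyproterone acetate table had 1.23, 1.24, 1.23 and 1.23 times the mean at this distance, in the same order of libraries, so called positions lie in fuller stretches in general. Other pool-empty matched pairs, below the read minimum in at least 1 treated library, had 1.21 times in both treated libraries and 1.18 times in both controls. Further out the rise was small but did not end. Over all members the 4 values were 1.31, 1.32, 1.21 and 1.21 times at 1000 to 2000 bp, and 1.24, 1.25, 1.16 and 1.18 at 2000 to 5000 bp. All positions of the cyproterone acetate table had 1.18 and 1.14 times at these distances in each of the 4 libraries.

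Within 1 kb the rise was largest at the strongest members. Where both treated libraries had 10 or more reads, the stretch at 200 to 500 bp held 5.52 times the chromosome mean with cyproterone acetate and 7.08 times with tamoxifen, against 1.34 and 1.21 times in the controls. Over the 23 of these 33 with no other member within 1 kb it held 5.56 and 7.24 times, against 1.41 and 1.36. Over all 33, near members included, the stretch at 500 to 1000 bp held 3.13 and 3.49 times against 1.37 and 1.11. At 1000 to 2000 bp the values of the 33 were 1.3 and 1.45 against 1.04 and 1.01, and at 2000 to 5000 bp 1.20 and 1.13 against 1.08 and 1.14. For the 994 members whose smaller read number was 3 to 4.5, the values at 200 to 500 bp were 1.56 and 1.66 against 1.32 and 1.31. The difference from the controls was thus present at the weak members too, and small.

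Single flanks of the 33 strongest members showed the same order. From 100 to 1000 bp on both sides, cyproterone acetate reads ran from 11 to 92.5 with a median of 41, and tamoxifen reads from 9 to 99 with a median of 38.5. The shallower control had 2 to 21 reads with a median of 9, and the deeper control 1 to 16 with a median of 8.5. Relative to each library's own mean, both treated libraries exceeded both controls at 31 of the 33, and at 21 of the 23 with no other member within 1 kb. Over all members this held at 371 (31.8%), over the 1116 without a near member at 327 (29.3%), over the members with a smaller read number of 3 to 4.5 at 26.0%, and over all positions of the cyproterone acetate table at 18.7%. The opposite order, both treated libraries under both controls, was found at 175 members (15.0%) and at 18.7% of all positions. The strongest member, centered at 228544492, had 39 flank reads with cyproterone acetate and 32.5 with tamoxifen, against 18 and 10 in the controls. The one centered at 163334052 had 11 and 11.5, where the chromosome means are 10.6 and 8.86, and its controls had 2 and 1, where the means are 7.21 and 7.91.

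**Figure D3:**
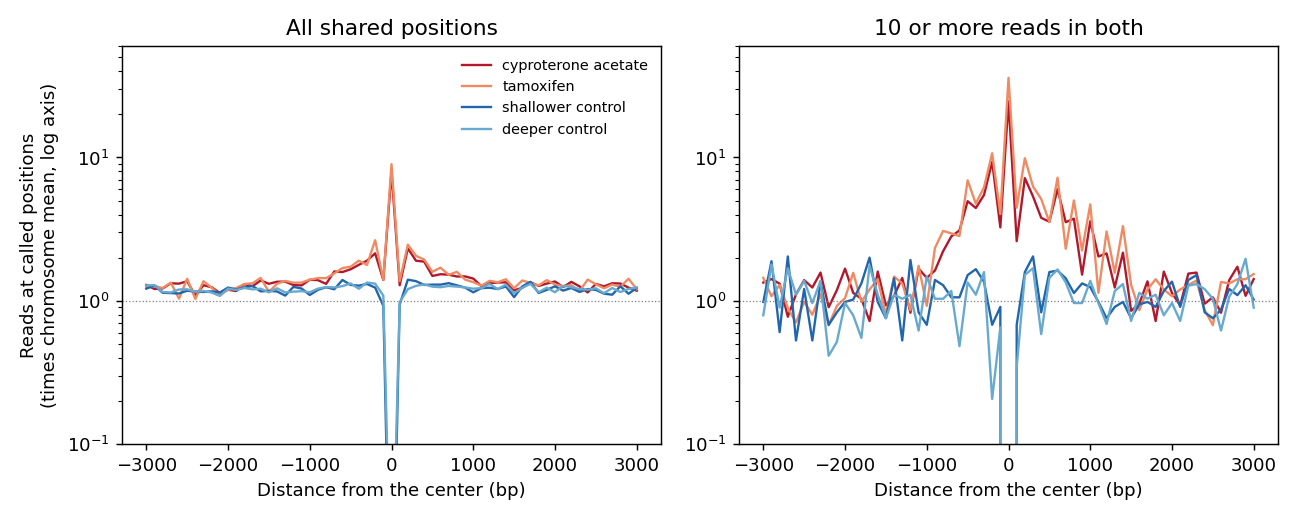
Reads at called positions by distance from the center of the members, in bins of 100 bp, as a multiple of the chromosome mean of each library on a log axis, for all 1165 members (left) and the 33 with 10 or more reads in both treated libraries (right). Lines are the 4 libraries; the controls leave the axis at the center, where the rule asks for 0, while the treated libraries peak there, dip at 100 bp, rise again at 200 bp and come down to 1.3 and 1.45 times the mean at 1000 to 2000 bp for the strongest.

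Members were scattered along the whole chromosome, with few close neighbours. The first was centered at 551362 and the last at 266332642, with a median of 125930 bp from one to the next. The widest stretch without a member ran from 85645992 to 87881762 and held 6286 positions of the cyproterone acetate table. Another member lay within 1 kb of 49 members (4.21%, exact 95% counting interval 3.13 to 5.52) and within 10 kb of 177 (15.2%). The mean number of other members within 1 kb was 5.70 times that of an even spread over the chromosome. The same ratio was 1.15 for pool-empty matched pairs below the read minimum, 1.24 for the cyproterone acetate list, 1.27 for the tamoxifen list and 1.12 for all positions of the cyproterone acetate table. Among the 171 members with 5 or more reads in both libraries, 22 (12.9%) had another of them within 1 kb.

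Those 49 members formed 23 runs, 3 of 3 members and 20 of 2. Neighbours within a run were 120 to 990 bp apart with a median of 345 bp, and 9 of the 26 spacings were under 200 bp. The run from 140471732 to 140472312 held members with 6, 16 and 16 reads for cyproterone acetate and 4, 12.5 and 25 for tamoxifen. With 1 kb added at either end it held 91 and 87.5 treated reads, while the shallower control held 11 and the deeper one 9. The run from 196342792 to 196343592 had 90.5 and 102 treated reads against 14 and 8.5, counted in the same way. For the run from 187606992 to 187607872 the numbers were 55 and 46.5 against 11.5 and 12.5. The runs of 2 members starting at 157315842 and 23096992 had 103.5 and 112 against 11 and 8, and 52.5 and 58 against 7.5 and 5. These totals include the members' own reads, which the rule used, and the runs were picked for their members, so they are a description. Without the members' reads the first run kept 53 treated reads for cyproterone acetate and 46 for tamoxifen. In the order named the other runs kept 66 and 75.5, 31.5 and 26.5, 80.5 and 88, and 32 and 25.

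By windows of 100 kb, 861 of the 2653 windows with called positions (32.5%) held a member, 218 held 2 or more and 58 held 3 or more. The fullest, from 187500001 to 187600000, held 7 members among 505 positions of the cyproterone acetate table (1.39%), against 0.120% over the chromosome. Its neighbour from 187600001 to 187700000 held 6, as did the window from 140400001 to 140500000. The windows starting at 28400001, 33700001 and 243100001 held 5 each. In the one starting at 33700001 the members ran from 3 to 5 reads with cyproterone acetate and from 3 to 6 with tamoxifen, so a full window did not need strong members.

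By windows of 1 Mb the one from 187000001 to 188000000 stood first with 26 members among 4822 positions, followed by those starting at 210000001 and 236000001 with 16 each. That first window was also rich in positions of either list alone, with 318 of the cyproterone acetate list (6.59% of its positions, against 4.6% over the chromosome) and 224 of the tamoxifen list. Across 267 windows the number of members followed the number of called positions, with a Pearson's r of 0.517 and a Spearman's rho of 0.613, given as a description because neighbouring windows share depth and base composition. The stretch from 185 to 215 Mb held 215 members, 18.5% of all, and 11.6% of the positions. It contains the fullest 100 kb and 1 Mb windows, and the shares of either list alone in it are not given, so this is a description.

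**Figure D4:**
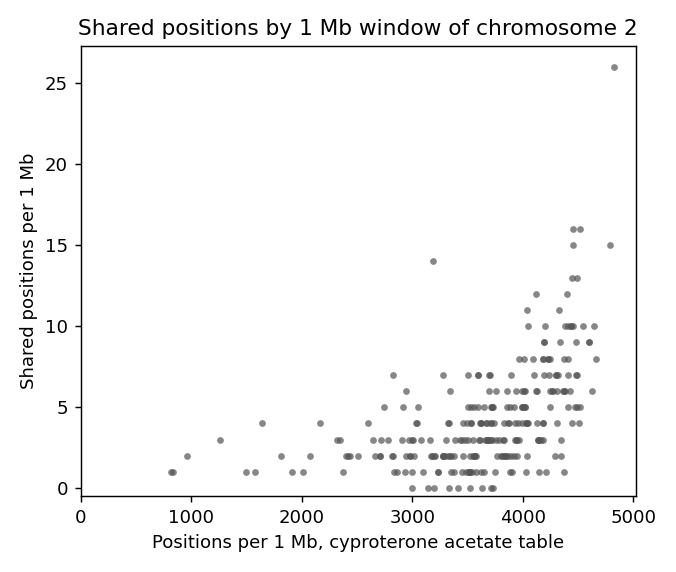
Members per 1 Mb window against called positions of the cyproterone acetate table per window, 267 windows of chromosome 2. Windows with more positions held more members, and the highest point, with 26 members, is the window starting at 187000001.

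The centers of the paired positions were mostly not the same. Of the 1165 pairs 391 (33.6%) had the same center in both tables, 42 were 5 bp apart and 732 (62.8%) were 10 bp apart, the limit of the rule. Within 20 bp the rule would have been met by 1857 pairs.

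Fuzziness, the spread of reads about a position as the authors scored it, lay above or below that of other pool-empty positions on chromosome 2, depending on the read number. The score comes from the same comparison as the rule and is given as a description. The median over members was 44.7 for cyproterone acetate (quartiles 39.8 and 49.4, range 29.4 to 73.4) and 43.8 for tamoxifen (37.5 and 49.2, range 29.0 to 73.5). Other pool-empty positions with 3 or more reads had medians of 44.2 and 42.9. At 3 or 3.5 reads members and other pool-empty positions had medians of 44.7 and 44.5 with cyproterone acetate, and both of 43.3 with tamoxifen. Positions with reads in the pool had 45.0 and 44.3 at this read number. At 5 to 6.5 reads members lay higher than other pool-empty positions, at 45.7 against 43.6 and 44.4 against 42.3. At 10 or more reads they lay lower, at 43.3 against 44.9 (69 and 163 positions) and 43.7 against 47.2 (50 and 106).

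**Figure D5:**
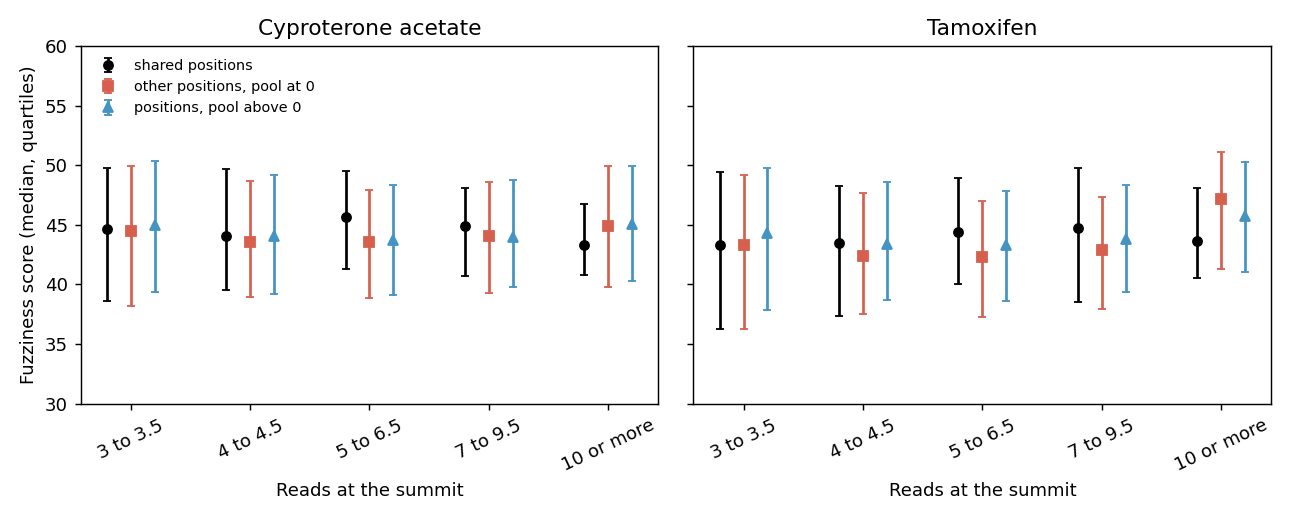
Fuzziness score on chromosome 2 by reads at the summit, for members, other positions with the pool at 0 and positions with the pool above 0, in the cyproterone acetate (left) and the tamoxifen table (right). Points are medians and bars quartiles; the vertical axis starts at 30, and the ranges of the 3 kinds of position overlap at every read number.

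The sharpest and the fuzziest member differed in more than their score. By the mean of both libraries the lowest score belonged to chr2:250232662-250232862, at 30.3 and 29.0, with 7 reads for cyproterone acetate and 9 for tamoxifen. The nearest control position was 820 bp away, and the flanks from 100 to 1000 bp held only 4 and 1 treated and 2 and 3 control reads. The highest belonged to chr2:185524722-185524922, at 63.7 and 71.7, with 3.5 and 3 reads. There the flanks held 40.5 and 53 treated reads against 17 and 8. The lowest score that any position with 3 reads had was 32.3 with cyproterone acetate and 31.8 with tamoxifen. It was held by 41 of 503 members with 3 reads (8.15%, exact 95% counting interval 5.91 to 10.9) and by 49 of 593 (8.26%, 6.18 to 10.8). Other pool-empty positions with 3 reads were at it in 7.71% and 9.64% of cases.

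Between the libraries the scores of the same member were only loosely alike. Across the 1165 members Pearson's r of the 2 scores was 0.325 and Spearman's rho 0.253, again over positions and without a test. The score was higher with cyproterone acetate at 627 members (53.8%), and the median difference, cyproterone acetate minus tamoxifen, was 0.69.

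All 1165 members passed an occupancy false discovery rate of 0.05 in both of the authors' deposited tables, as did 13.4% of all positions of the cyproterone acetate table and 16.6% of the tamoxifen table. The rule used that contrast, so nothing is read from this count. Members with 3 reads had a median false discovery rate of 0.0234 with cyproterone acetate and 0.0156 with tamoxifen in the authors' deposited tables. At members with 10 or more reads it was at most 0.00015 in the authors' deposited table for cyproterone acetate and 0.000113 in that for tamoxifen.

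On chromosome X, which the rule did not use, 3 reads in each treated library and a pool of 0 were met by 232 positions. They were 1.58% of the 14674 cyproterone acetate positions with 3 or more reads and a pool of 0 (3.86% of that table) and 2.71% of the 8564 tamoxifen ones (2.59%). Of the 1230 matched pairs with 3 or more reads in both libraries, whatever the pool, they were 18.9%. Of all 100890 matched pairs on X, 9721 (9.64%) had the pool at 0 in both, so these 2 shares were further apart than on chromosome 2. The share of pool-empty positions that were shared again grew with the read number, from 0.885% at 3 or 3.5 reads to 35.1% (13 of 37, 20.2 to 52.5) at 10 or more for cyproterone acetate, and from 1.63% to 37.5% (12 of 32, 21.1 to 56.3) for tamoxifen. The highest read numbers were 12 and 14, lower than on chromosome 2, and only 2 positions had 10 or more in both.

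The flanks on X were raised in the treated libraries as well. At 200 to 500 bp the 232 positions had 3.15 times the chromosome mean with cyproterone acetate and 3.34 times with tamoxifen, against 1.64 and 1.44 in the controls, where all positions of the cyproterone acetate table had 1.33 to 1.35 times in the 4 libraries. At the 42 positions with 5 or more reads in both the values were 4.17 and 5.07 against 1.5 and 1.21. Over the 212 positions with no other within 1 kb they were 2.97 and 3.08 against 1.63 and 1.46. Both treated libraries exceeded both controls in the flanks of 110 of the 232 (47.4%) and of 92 of these 212 (43.4%), against 17.8% of all positions. Another member lay within 1 kb of 20 (8.62%). Median fuzziness was 42.6 with cyproterone acetate and 40.9 with tamoxifen, against 40.2 and 39.3 at other pool-empty positions with 3 or more reads. At 5 to 6.5 reads it was 42.8 against 40.6 with cyproterone acetate and 38.4 against 39.7 with tamoxifen. At 10 or more reads it was 39.8 against 42.7 (13 and 24 positions) and 43.2 against 41.0 (12 and 20). The tamoxifen order at these read numbers was thus the reverse of that on chromosome 2.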

How the data were processed

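Sperm chromatin digested with micrococcal nuclease was sequenced in 4 libraries. The submitters' processing notes name rn6 as the build, with Bowtie2 and SAMtools 1.4 as tools. No position caller is given in the sources used here. Each of the 6 tables lists positions of 200 bp. The summit values are a coverage signal that the authors scaled between libraries, per the file headers. Per the file headers, the authors also computed a fuzziness score and a false discovery rate, which is an adjusted p-value.

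The side headed treat was read as the pooled controls and the side headed control as the treated library. The headers do not tell the controls apart, so they are named by depth. The most frequent signal above 0 was taken as 1 read, and all signals were then multiples of 0.5 reads (tolerance 0.01 of a step). Rows were paired nearest first, each used once, by code tested on simulated data. Flank reads were summed over position centers, each library from 1 table, and divided by that library's mean over the chromosome. Intervals are exact (Clopper-Pearson). Python 3.11.15, numpy 2.4.6, pandas 2.3.3 and scipy 1.17.1 were used.

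The members and lists were chosen with earlier results of these data known. The positions named are the 10 with the highest smaller read number, 5 runs (gaps of at most 1 kb; most members first, then most cyproterone acetate reads, an order for ties set afterwards), the 5 fullest 100 kb windows with ties, and the extremes of fuzziness. The alternatives were other match distances, read numbers, neighbour distances, window sizes, control search distances, and 1 control left out. Sequence and gene annotation were not used here.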

Additional observations from a re-analysis of the deposited data

How the results depend on the processing

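The number of members moved with nearly every setting of the rule, and the cause was not tested beyond the settings themselves. From 1165 it went to 391 for equal centers, 1857 for centers within 20 bp and 3159 within 50 bp. It was 5345 at 2 reads in each library, 345 at 4, 171 at 5 and 33 at 10. With no control position within 150 bp it was 413 (983 within 73 bp), and with no pooled read in the whole position, an alternative chosen after seeing the data, 337. Leaving out 1 control, which cannot lower the number, gave 1853 to 1896, both lower limits because 6510 pairs were not decided. Reuse of rows and an authors' false discovery rate of at most 0.05 left it at 1165, and nothing is read from either. The rule used the same contrast as that rate, whose highest value at any member was 0.0234. Positions of the cyproterone acetate table lie at least 75 bp apart, so no tamoxifen position could be paired with more than 1 of them within 10 bp.

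The share of members with another within 1 kb, 4.21%, became 1.55% within 200 bp, 15.2% within 10 kb, 5.69% at 2 reads, 12.9% at 5 reads and, chosen after seeing the data, 8.62% on X. The highest number in a window was 7 for 100 kb and 26 for 1 Mb. A control position lay near 15.6% of members at 73 bp, 64.5% at 150 bp and 99.3% at 500 bp. Median fuzziness moved from 44.7 to between 44.5 and 44.8 with cyproterone acetate and from 43.8 to between 42.8 and 43.9 with tamoxifen, over members with 3 reads, with other match distances and, chosen after seeing the data, with 10 or more reads in both libraries. The planned description of sequence and annotation was not run. Members with another within 1 kb were also left out of the reads at 200 to 500 bp, chosen after seeing the data. The multiple of the chromosome mean went from 1.83 to 1.72 with cyproterone acetate and from 1.96 to 1.83 with tamoxifen. It went from 1.32 to 1.33 in the shallower control and from 1.28 to 1.3 in the deeper one. No paired analysis was possible because each treatment has 1 library. Depth limits the members: most rest on 3 or 4 reads in either treated library, where a lower level in the controls is not detectable at a single position.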
